A study of Homo sapiens with 4 samples.

Results

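The transcription factors that drive or oppose the epithelial-mesenchymal transition (EMT), together with vimentin, were examined in MDA-MB-231 and in LM2-4175 cells. The 10 genes were taken from a list of symbols, by a rule that uses no measured value, but with earlier results of these data known. Each had 1 row among the 57815 genes of the expression table. MDA-MB-231 is a human triple-negative breast cancer cell line, and LM2-4175 was isolated from it and metastasizes to the lung. Both were grown untreated in serum-containing medium, and LM2-4175 stands for a single derived line. Each cell line gave 2 libraries of total RNA, 4 in all, and the labels do not say whether these came from separate cultures. The deposited table gives 1 FPKM per gene and cell line (sequenced fragments scaled to transcript length and library size, a unit in which genes of different length can be compared), with a lower and an upper bound. Both libraries of a cell line went into that value, which leaves neither an SD nor a p-value, and no difference has a replicate check.

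In EMT, epithelial cells give up cell-cell junctions and keratin-rich architecture and take on a motile, mesenchymal form. The zinc finger proteins SNAI1 and SNAI2, the zinc finger homeobox proteins ZEB1 and ZEB2 and the basic helix-loop-helix proteins TWIST1 and TWIST2 are known to drive it, largely by repressing epithelial genes through E-box elements. GRHL2, OVOL1 and OVOL2 hold cells in the epithelial state and oppose ZEB1. Vimentin, encoded by VIM, is the intermediate filament protein of mesenchymal cells and the customary marker of the transition, and MDA-MB-231 is widely used as a mesenchymal-like breast cancer line.

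Both cell lines expressed VIM, ZEB1, SNAI2, ZEB2 and SNAI1, while TWIST1, TWIST2, GRHL2, OVOL1 and OVOL2 were at or near 0 in both. SNAI1 was lower in LM2-4175, at 0.836 FPKM against 2.59 FPKM in MDA-MB-231. The ratio of LM2-4175 over MDA-MB-231 was 0.323, or 3.10 the other way. ZEB1 and ZEB2 had higher values in LM2-4175 by ratios of 1.55 and 2.00, VIM had a ratio of 1.30 and SNAI2 a ratio of 0.725, and the bounds of these 4 genes overlapped between the cell lines. Calls required a mean of 0.5 FPKM or more, a change of 1.5-fold or more in FPKM + 1, and bounds of the authors that were apart. Of the 5 genes that passed this level, 1 (SNAI1) was called, and 4 were not. Over all 13911 genes tested, 9.27% were called, with 4.67% higher and 4.61% lower in LM2-4175, so the number called among these genes is too small to be read against that share. In RNA from whole cultures, fewer cells with a transcript and less of it per cell cannot be told apart.

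**Figure D1:**
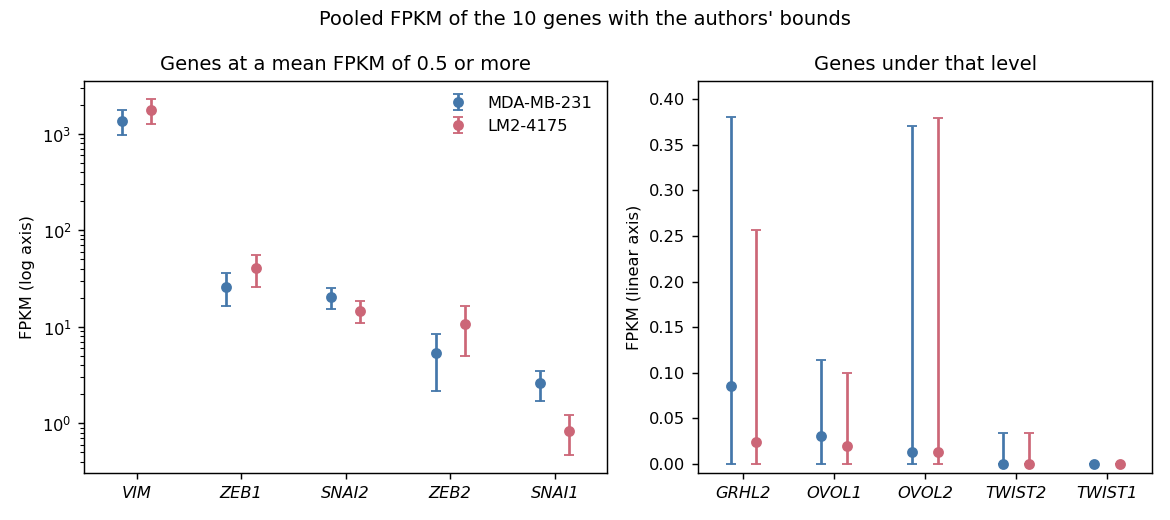
FPKM of the 10 genes in MDA-MB-231 (blue) and LM2-4175 (red), on a log axis for the 5 genes with a mean of at least 0.5 FPKM (left) and on a linear axis for the other 5 (right). Points are the authors' pooled values and bars their lower and upper bounds. The bars of SNAI1 do not overlap, those of the other 4 genes on the left do, and no point on the right exceeds 0.0851 FPKM.

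SNAI1, the first described of the E-cadherin repressors, lies on chromosome 20 of GRCh37 (48599517 to 48605423, plus strand, ENSG00000124216). MDA-MB-231 cells contained 2.59 FPKM of SNAI1 (bounds 1.70 and 3.48), and LM2-4175 cells 0.836 FPKM (bounds 0.467 and 1.21). The whole interval in LM2-4175 lay under that in MDA-MB-231. The log2 fold change on the scale of FPKM + 1 was -0.97 ± 0.23 (SE derived from the bounds), and without the pseudocount, which weighs on a gene at this level, it was -1.63. The absolute change was larger than that of 91.0% of the genes tested. No exon of another gene overlaps SNAI1, and its copy SNAI1P1 was listed at 0 in both cell lines. With a fold of at least 2 on the scale of FPKM + 1, SNAI1 was not called.

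SNAI2, also named Slug, is the paralogue of SNAI1 and is known in the breast as a factor of basal cells. It lies on chromosome 8 (49830157 to 49834299, minus strand, ENSG00000019549). MDA-MB-231 cells contained 20.2 FPKM (bounds 15.3 and 25.1), and LM2-4175 cells 14.6 FPKM (bounds 11 and 18.3). The intervals shared the range between 15.3 and 18.3 FPKM, and the log2 fold change was -0.44 ± 0.24. Of the exon bases of SNAI2, 3.69% are shared with a gene on the opposite strand. SNAI2 exceeded SNAI1 in both cell lines, by 7.80 times in MDA-MB-231 and 17.5 times in LM2-4175.

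ZEB1 lies on chromosome 10 (31607424 to 31818742, plus strand, ENSG00000148516) and ZEB2 on chromosome 2 (145121931 to 145278624, minus strand, ENSG00000169554). Both encode repressors that bind paired E-boxes through zinc finger clusters at either end of the protein. For ZEB1, MDA-MB-231 stood at 26.1 FPKM (bounds 16.5 and 35.6) and LM2-4175 at 40.5 FPKM (bounds 25.7 and 55.2), with a log2 fold change of 0.62 ± 0.36. For ZEB2, the levels were 5.30 FPKM (bounds 2.18 and 8.42) and 10.6 FPKM (bounds 4.98 and 16.2), with a log2 fold change of 0.88 ± 0.50. Both factors thus had values more than 1.5-fold higher in LM2-4175, with intervals that overlapped. By the fold alone, ZEB1, ZEB2 and SNAI1 would be called, and this rule called 22.1% of all genes tested, 10.3% higher and 11.8% lower. The bounds of ZEB2 were wide, with the upper bound 58.9% above the FPKM in MDA-MB-231 and 52.9% in LM2-4175, against medians of 38.6% and 38.1% over the genes tested. In GENCODE 44, other genes overlap 16.3% of the exon bases of ZEB2, of which 11.3% belong to AC009951.1 on the same strand and 4.97% to ZEB2-AS1 on the opposite strand.

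VIM lies on chromosome 10 (17270240 to 17279592, plus strand, ENSG00000026025) and stood at 1355 FPKM in MDA-MB-231 (bounds 961 and 1749) and at 1768 FPKM in LM2-4175 (bounds 1243 and 2292). It ranked 53 among 19398 protein-coding genes in MDA-MB-231 and 24 in LM2-4175. The log2 fold change was 0.38 ± 0.30, under 1.5-fold and with overlapping bounds. The antisense gene VIM-AS1 was listed at 464 FPKM (70.0 to 857) and 570 FPKM (110 to 1029). In GENCODE 44, a later release than the GENCODE 19 of the FPKM, 656 bases, or 30.9% of its exon bases, overlap exons of VIM. These bases make up 12.7% of the exon bases of VIM. A further antisense gene, ENSG00000234961, overlaps another 12.0% of them. Whether reads were counted by strand is not given, so those from the shared bases cannot be assigned to either gene. ZEB1-AS1, which overlaps 4.58% of the exon bases of ZEB1, had 4.22 FPKM (0 to 10.4) and 3.51 FPKM (0 to 9.94).

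**Figure D2:**
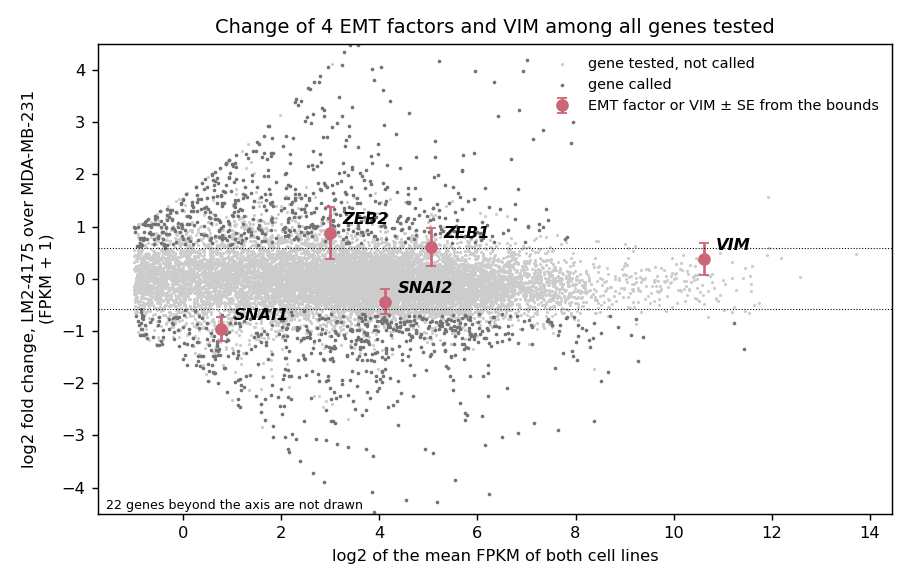
Log2 fold change of LM2-4175 over MDA-MB-231 (FPKM + 1) against the log2 mean FPKM for the 13911 genes tested, with genes called in dark grey and 22 genes beyond the vertical axis left out. Red points are SNAI1, SNAI2, ZEB1, ZEB2 and VIM with SE bars derived from the bounds, and dotted lines mark 1.5-fold. SNAI1 (-0.97) lies below the lower line, while ZEB1 (0.62) lies just above the upper line and ZEB2 (0.88) further above it.

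The TWIST genes were not detected at appreciable levels. TWIST1 (chromosome 7, 19060614 to 19157259, minus strand) was listed at 0 in both cell lines with bounds of 0, and an exact 0 in this table can also be a failed estimate. TWIST2 (chromosome 2, 239756673 to 239832230, plus strand) had an upper bound of 0.0339 FPKM in MDA-MB-231 and 0.0338 FPKM in LM2-4175. The epithelial factors were also close to 0 in both cell lines. GRHL2 (chromosome 8, 102504667 to 102681954, plus strand), which sustains CDH1 and other junction genes, reached 0.0851 FPKM (upper bound 0.381) in MDA-MB-231 and 0.0238 FPKM (upper bound 0.256) in LM2-4175. OVOL1 (chromosome 11, 65554534 to 65564685, plus strand) reached at most 0.0302 FPKM, in MDA-MB-231, and OVOL2 (chromosome 20, 17937623 to 18039832, minus strand) had 0.0134 FPKM there and 0.0133 FPKM in LM2-4175. As all of these lower bounds were 0, no fold between the cell lines is given for these genes. An antisense gene (ENSG00000255404) overlaps 27.3% of the exon bases of OVOL1.

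The order of levels was VIM, ZEB1, SNAI2, ZEB2, SNAI1 in both cell lines. In MDA-MB-231, the bounds of ZEB1 and SNAI2 overlapped, as did those of ZEB2 and SNAI1, while SNAI2 was clear of ZEB2. In LM2-4175 it was ZEB1 that stood clear of SNAI2, by a ratio of 2.77 against 1.29 in MDA-MB-231, and SNAI2 and ZEB2 overlapped. ZEB2 was clear of SNAI1 in LM2-4175 with a ratio of 12.7, compared with 2.05 in MDA-MB-231. Of the summed FPKM of SNAI1, SNAI2, ZEB1 and ZEB2 (54.1 in MDA-MB-231 and 66.5 in LM2-4175), ZEB1 held 48.1% in MDA-MB-231 and 60.8% in LM2-4175, ZEB2 held 9.78% and 15.9%, SNAI2 held 37.3% and 22%, and SNAI1 held 4.78% and 1.26%. These shares are a description of the pooled values, and whether they differ beyond the spread between libraries could not be tested.

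ZEB1 and ZEB2 are set apart from the other genes by their 3′ untranslated regions (UTRs). The microRNAs of the miR-200 family are known to bind there and to hold both factors down in epithelial cells. The mature sequences of the family, from RefSeq (GRCh38.p14), are shown because they fall into groups by seed, with the seed (bases 2 to 8) in capitals.
hsa-miR-200b-3p: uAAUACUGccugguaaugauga
hsa-miR-200c-3p: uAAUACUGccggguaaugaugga
hsa-miR-429: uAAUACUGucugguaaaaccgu
hsa-miR-200a-3p: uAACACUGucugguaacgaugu
hsa-miR-141-3p: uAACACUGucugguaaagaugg
The first 3 share the seed AAUACUG and the last 2 the seed AACACUG, and the sequences matched were CAGTATT and CAGTGTT. In the canonical transcripts of GENCODE 44 on GRCh37, the 3′ UTR of ZEB1 (2540 bases) held 6 matches to the first and 3 to the second, and that of ZEB2 (5370 bases) held 5 and 4. Only 8 of 18935 3′ UTRs (0.0422%) held 9 or more such matches, ZEB1 and ZEB2 included. SNAI2 and GRHL2 held 1 match each, and SNAI1, TWIST1, TWIST2, OVOL1, OVOL2 and VIM held none. Per kilobase, ZEB1 had 3.54 and ZEB2 1.68 matches, against 0.254 over all 3′ UTRs. The first match to each seed in both genes is shown with its flanking bases, as transcript sequence with the match in capitals.
ZEB1, first CAGTATT, base 369 of the 3′ UTR: attgttttatcttatCAGTATTa
ZEB1, first CAGTGTT, base 782: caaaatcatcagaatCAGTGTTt
ZEB2, first CAGTATT, base 392: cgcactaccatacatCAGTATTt
ZEB2, first CAGTGTT, base 208: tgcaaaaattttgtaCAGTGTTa
A match is a property of the sequence and says nothing of binding in these cells. The loci MIR200A, MIR200B, MIR200C, MIR141 and MIR429 and the miR-205 host gene MIR205HG were listed at 0 in both cell lines. A library of long RNA does not capture mature microRNAs, so their levels were not measured.

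**Figure D3:**
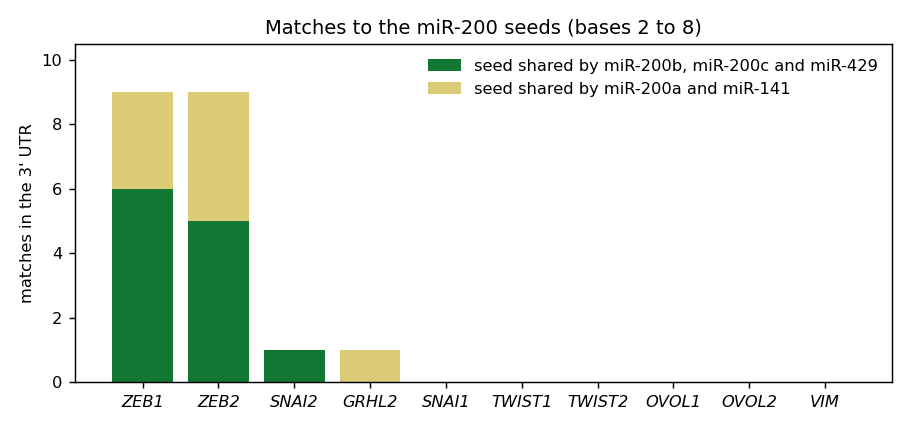
Number of matches to the miR-200 seeds in the 3′ UTR of each of the 10 genes, in green for the seed of miR-200b, miR-200c and miR-429 and in yellow for that of miR-200a and miR-141. ZEB1 and ZEB2 reach 9 matches each, SNAI2 and GRHL2 have 1, and the other 6 genes have none.

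Genes beside SNAI1, SNAI2, ZEB1, ZEB2 and VIM were examined for changes shared along the chromosome. Within 1 Mb of SNAI1, 18 protein-coding genes were tested, with 9 higher and 9 lower in LM2-4175 and a median log2 fold change of -0.03. The lower level of SNAI1 was outside their range, which ran from -0.56 to 1.88. The single gene called among them was CEBPB, a transcription factor gene 0.208 Mb away named after its values were seen, at 5.45 FPKM in MDA-MB-231 and 22.8 FPKM in LM2-4175. All 5 genes tested near ZEB1 had higher values in LM2-4175, spread from 0.05 to 0.69 around a median of 0.28, without a call. Near VIM, also on chromosome 10, 5 of 6 genes had higher values (median 0.24, none called). GTDC1, the only gene tested near ZEB2 and named for that, had a log2 fold change of -0.51 and was not called, and the 3 genes near SNAI2 had a median of -0.06. Over all genes tested, the median was -0.04, 45.5% had higher values in LM2-4175 and 9.27% were called. The counts of neighbours are too small to be read against these shares.

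**Figure D4:**
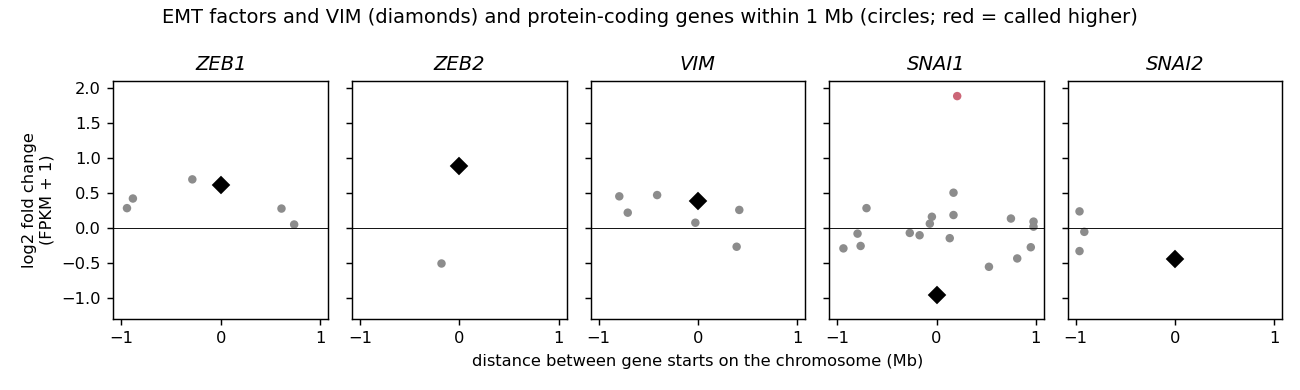
Log2 fold change of ZEB1, ZEB2, VIM, SNAI1 and SNAI2 (diamonds) and of protein-coding genes tested within 1 Mb (circles, red where called higher) against the distance between gene starts in Mb. SNAI1 (-0.97) lies below all 18 of its neighbours, and ZEB1 (0.62) lies among 5 neighbours that are all above 0.

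The epithelial genes that SNAI and ZEB factors are known to repress were examined next. The list of 40 symbols named 39 genes, since PATJ and INADL are the same gene, and all 39 were in the table. Of 31 tested, 8 were called lower and 2 higher in LM2-4175 and 21 were not called, against 4.61% lower and 4.67% higher over all genes tested. Their median log2 fold change was -0.40, against -0.04 over all genes. CLDN4, a tight junction claudin, showed the largest decrease, from 69.2 FPKM (53.5 to 85.0) to 2.63 FPKM (1.73 to 3.53). Among the keratins of simple epithelia, KRT19 fell from 250.3 to 36.3 FPKM and KRT8 from 626 to 180.2 FPKM. MAL2, a protein of apical transport, fell from 4.60 to 0.567 FPKM, and LLGL2, a polarity gene, from 8.71 to 2.42 FPKM. The genes called higher were CLDN1, at 0.999 and 2.76 FPKM, and DSC2, which encodes desmocollin 2, at 1.33 and 2.70 FPKM. CDH1, the E-cadherin gene and best known target of these factors, was named after its values were seen. MDA-MB-231 cells contained 0.851 FPKM (bounds 0.403 and 1.30) and LM2-4175 cells 0.366 FPKM (bounds 0.0734 and 0.658), which overlapped. No list result was tested against chance.

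The E-box bound by SNAI and ZEB proteins, CACCTG or CAGGTG (1 motif read on both strands), was searched in RefSeq promoter windows of 300 bases. Of 21 epithelial genes with an entry, 15 (71.4%) held it in at least 1 window, against 24.1% of 27305 genes with an entry. Counting only genes with a single window, it was 7 of 13 (53.8%) against 20.8%. Among the 15 genes with the motif, 11 were tested, 1 was called higher and none lower, with a median log2 fold change of -0.21. Among the 6 genes with an entry and no motif, CLDN4 and KRT8 included, 5 were tested, 1 was called higher and 2 lower, with a median of 0.26. The other 18 genes of the list, CDH1 included, had no matched entry and were not searched. Of their 15 tested, 6 were called lower, with a median of -0.80. Over all genes tested, 4.67% were called higher and 4.61% lower. The groups with and without the motif are too small to be read against these shares or against each other. Entries were matched for 4 of the 10 EMT genes, and ZEB1 alone of these held the motif, in 2 of its 7 windows, while ZEB2, TWIST2 and VIM did not. The windows below are shown because they hold the motif (capitals), in the ZEB1 window with most matches, which overlaps the start of ZEB1-AS1, and in 2 epithelial genes. Each runs from 250 bases before to 50 bases after a start (GRCh38.p14).
ZEB1, chr10:31318966-31319265, plus strand: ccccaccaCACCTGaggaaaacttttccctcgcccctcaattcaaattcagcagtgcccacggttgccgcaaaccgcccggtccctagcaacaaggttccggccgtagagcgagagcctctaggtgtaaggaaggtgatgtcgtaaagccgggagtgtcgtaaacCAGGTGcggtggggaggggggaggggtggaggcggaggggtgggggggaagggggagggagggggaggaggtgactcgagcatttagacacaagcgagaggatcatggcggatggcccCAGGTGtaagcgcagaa
CLDN7, chr17:7262429-7262728, minus strand: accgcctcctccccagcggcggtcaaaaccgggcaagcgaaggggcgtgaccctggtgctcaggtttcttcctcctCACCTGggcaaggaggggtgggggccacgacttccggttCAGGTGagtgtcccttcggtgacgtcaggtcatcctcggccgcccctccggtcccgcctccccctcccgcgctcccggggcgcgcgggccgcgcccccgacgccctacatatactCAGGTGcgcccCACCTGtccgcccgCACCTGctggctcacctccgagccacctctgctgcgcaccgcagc
MUC1, chr1:155192866-155193165, minus strand: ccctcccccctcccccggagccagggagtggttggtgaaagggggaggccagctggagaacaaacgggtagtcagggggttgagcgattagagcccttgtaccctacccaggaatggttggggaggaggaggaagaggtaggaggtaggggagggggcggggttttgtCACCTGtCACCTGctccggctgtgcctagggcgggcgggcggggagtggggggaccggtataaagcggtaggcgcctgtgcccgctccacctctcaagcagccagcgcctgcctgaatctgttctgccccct
The motif began 242 and 85 bases before and 33 bases after the ZEB1 start. CLDN7, with 5 matches, had 19.4 FPKM (0 to 41.4) and 28.0 FPKM (2.42 to 53.6), and MUC1, with 2 adjoining matches, had 13.3 FPKM (3.23 to 23.3) and 1.81 FPKM (0 to 4.39). Neither was called, and both were named after their values were seen.

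Mesenchymal genes, among which VIM is usually counted, did not move in a single direction. Of 27 tested from a list of 32, 7 were called higher, 10 lower and 10 not, against 4.67% higher and 4.61% lower over all genes tested, and the median was -0.14. SPARC, a secreted matrix glycoprotein, rose from 13.6 to 231.7 FPKM and COL1A1 from 3.16 to 31.0 FPKM. MMP2, a gelatinase, rose from 0.177 to 5.40 FPKM, TNC (tenascin C) from 13.6 to 55.8 FPKM and COL6A2 from 19 to 53.3 FPKM. In contrast, S100A4 fell from 580.4 to 87.0 FPKM, the cadherin gene CDH11 from 35.1 to 6.14 FPKM and TAGLN, an actin-binding protein of smooth muscle, from 122.8 to 25.1 FPKM. COL6A3 fell from 12.7 to 2.51 FPKM and PDGFRB from 9.44 to 1.91 FPKM. CDH2, the N-cadherin gene, was named after its values were seen and had 0.221 and 0.0839 FPKM. Among 22 genes of other intermediate filaments and partners of vimentin, 0 of 16 tested were called (median -0.21), a count too small to be told from the 9.27% over all genes.

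**Figure D5:**
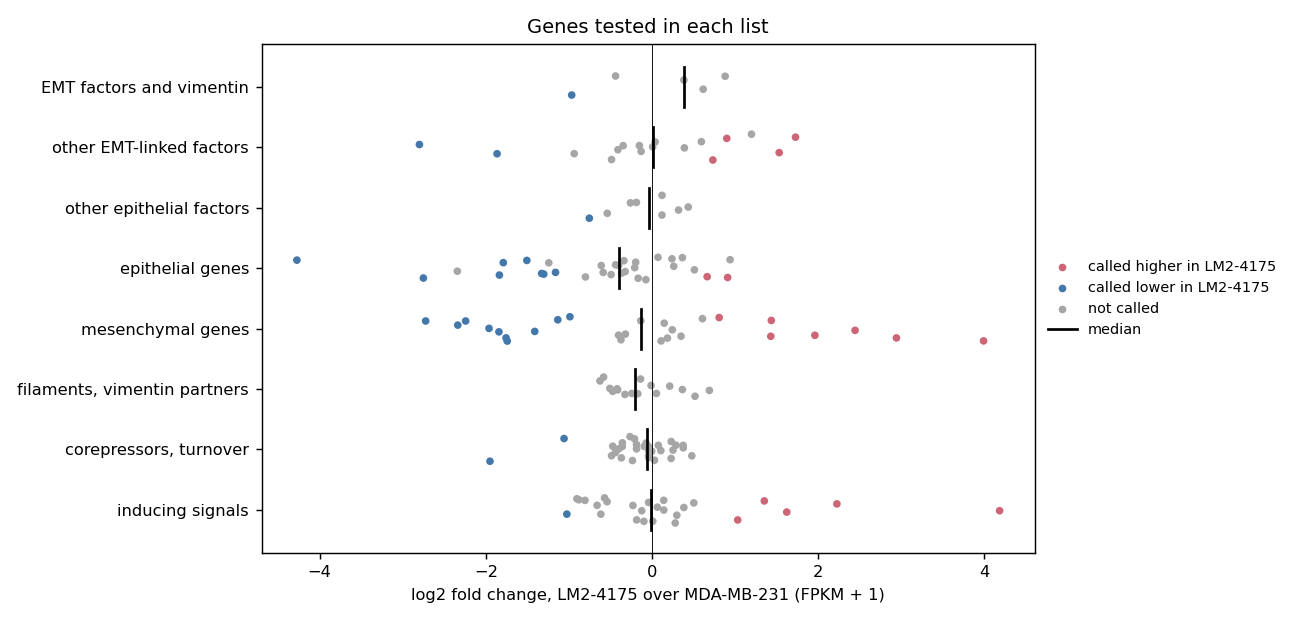
Log2 fold change (FPKM + 1) of each gene tested in 8 lists, in red where called higher in LM2-4175, in blue where called lower and in grey where not called, with the median as a black bar. Among the EMT factors and vimentin SNAI1 is the single gene called, and mesenchymal genes lie on both sides of 0.

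Other transcription factors linked to EMT were also mixed. Of 26, 17 were tested, with 4 called higher, 2 lower and 11 not called, against 9.27% called over all genes tested, and a median of 0.01. PRRX1, a homeobox gene, rose from 0.0919 FPKM (bounds 0 and 0.334) to 2.62 FPKM (bounds 0.629 and 4.60). LEF1, a nuclear partner of beta-catenin, rose from 3.90 to 13.2 FPKM, FOXQ1 from 5.34 to 9.54 FPKM and KLF8 from 0.219 to 1.28 FPKM. The inhibitors of basic helix-loop-helix factors ID1 and ID3 fell from 68.5 to 18.1 FPKM and from 37.0 to 4.46 FPKM. TCF3 and TCF12, which pair with TWIST and bind E-boxes, were named after their values were seen, with 50.2 and 50.5 FPKM for TCF3 and 29.4 and 30.2 FPKM for TCF12. Of 8 further epithelial factors tested, SPDEF alone was called, falling from 9.20 to 5.04 FPKM, and it was not called under either scaling tried. This count of 1 of 8 is too small to be told from the 9.27% over all genes. Of 32 corepressors and turnover factors tested, WTIP, a partner of SNAI proteins, fell from 11.5 to 2.23 FPKM and the deubiquitinase gene USP9X from 39.5 to 18.4 FPKM, and the other 30 were not called, so that 2 of 32 stood near the 9.27% over all genes.

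Of the signals that induce the EMT factors, 26 genes were tested, 5 were called higher and 1 lower, against 4.67% and 4.61% over all genes, with a median of -0.02. The cytokine gene IL6 rose from 12.5 to 245.2 FPKM and the ligand gene WNT5A from 0.0917 to 4.11 FPKM. PDGFA rose from 4.37 to 15.5 FPKM and PDGFB from 0.326 to 2.38 FPKM. The TGF-beta receptor gene TGFBR2 rose from 47.6 to 98.3 FPKM, while SMAD7, which encodes an inhibitor of that pathway, fell from 8.30 to 3.57 FPKM. TGFB1 itself, named after its values were seen, had 29.8 FPKM (0 to 61.5) and 18.5 FPKM (0 to 39.7).

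The labelled cell type was checked against marker genes, of which those not called were named after their values were seen. All 8 markers of MDA-MB-231 had a mean of at least 0.5 FPKM, with CD44 at 470 and 355 FPKM and AXL at 402 and 322 FPKM. Of these 8, CAV1, CAV2 and KRT18 were called lower in LM2-4175, against 4.61% lower over all genes tested. ESR1 and PGR reached at most 0.0331 FPKM, but XBP1, another marker of luminal breast epithelium, had 35.8 and 48.4 FPKM. The white blood cell markers summed to 4.88 FPKM in MDA-MB-231 and 2.91 FPKM in LM2-4175. CSF1R, at 2.92 and 0.790 FPKM, and CD14, at 1.17 and 1.75 FPKM, were the 2 that were tested, and neither was called. NKG7, CD2 and CD3E were listed at 0 in both cell lines, and PTPRC had at most 0.0767 FPKM. The 7 endothelial markers in the table summed to 1.44 and 6.52 FPKM, and both of those tested were called higher in LM2-4175. Over all genes tested, 4.67% were called higher, and a count of 2 is too small to be read against that share. TIE1 rose from 0.332 to 3.81 FPKM and KDR from 0.971 to 2.48 FPKM, and CDH5 and VWF, under the level tested, had at most 0.0857 FPKM. The part of these markers in the results above was not tested.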

How the data were processed

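The authors extracted total RNA, prepared TruSeq libraries, read 150 bases from both fragment ends, used TopHat2 for alignment to hg19, and quantified genes of GENCODE 19 with Cufflinks, and the submitters' processing notes also name Cuffdiff. They deposited FPKM values with bounds, with the 2 libraries of a cell line combined in 1 value. Library size normalization, strand and what the bounds cover are not given in the sources used here. The table holds no counts, and depth per sample is unknown from it, so the precision was read from the bounds. The study lists aligned read pairs for each library, which were not used here.

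The 10 genes and all lists were chosen with earlier results of these data known. The lists were written from general knowledge. Changes are log2 of (FPKM + 1) in LM2-4175 over that in MDA-MB-231, computed in Python 3.11.15 with NumPy 2.4.6 and pandas 2.3.3 and drawn with Matplotlib 3.10.9. Genes of status OK with a mean of at least 0.5 FPKM were tested, and the call needed at least 1.5-fold on FPKM + 1 and bounds apart. The study's methods also set a fold of 1.5, but with a q-value of Cuffdiff and no stated pseudocount, so the calls here follow another rule. The call compares pooled libraries. It was also run on simulated data with noise set from the authors' bounds. That run cannot show how the call fares where libraries spread more than the bounds. SEs take the upper bound as 2 SE above the FPKM and were carried to the log2 scale. Named are the 10 genes and, in each list, the genes called, at most the 5 largest each way. Likeness of patterns was not computed over 2 values. Positions, exon overlaps and 3′ UTRs came from GENCODE 44 on GRCh37, the build of the files, and microRNAs and promoters from RefSeq on GRCh38.p14. Exon overlaps in GENCODE 44 need not match those in GENCODE 19, on which the FPKM were computed. PATJ was matched by its older symbol INADL, and PECAM1 and MIR205 are not analysed here. JAG1 had 2 entries, of which 1 was tested. Protein sequences were not used here, and a marker gene of white blood cells is not reported here.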

Additional observations from a re-analysis of the deposited data

How the results depend on the processing

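Of 24 results under 9 alternatives (216 values), 199 kept their side of the call or stayed within the limits set for a move. Many of these could not change, since alternatives that alter only the call leave every fold change and median as it was. Reversal was sought only in the fold changes of the 5 EMT genes tested, and none was found. Some list medians near 0 changed sign. That of inducing signals went from -0.02 to 0.06 with TPM, and that of other EMT-linked factors from 0.01 to -0.06 with a filter at a mean of 1 FPKM. With a fold of at least 2 in place of 1.5, SNAI1 (log2 fold change -0.97) was not called, so that 0 of the 10 genes were called, and 403 genes were called lower over the whole table. This threshold acts on FPKM + 1, where the ratio of 3.10 in SNAI1 (MDA-MB-231 over LM2-4175) shrinks to just under 2. By the fold alone, ZEB1 (0.62) and ZEB2 (0.88) were called too, making 3 of the 5 EMT genes tested. Over the whole table, this rule called 1434 genes higher and 1640 lower, or 22.1% of the genes tested. Beside that share, 16 of 31 epithelial genes, 2 of 16 filament or vimentin partner genes and 11 of 26 inducing signals were called. The counts of 3 of 5 and 2 of 16 are too small to be read against it. With a 95% normal interval of the difference that excludes 0 as the rule, 1054 of 13911 genes were called higher and 1264 lower. Under it, 1 of 16 filament or vimentin partner genes was called, too few to be read against the whole table, and SNAI1 remained the single EMT gene called. SPDEF, the only other epithelial factor called, was lost (0 called) with a fold of 2, with values rescaled to TPM and with LM2-4175 divided by the median ratio. In this last setting and with TPM, ZEB2 stood at 0.92 and 1.00 and was still not called. No paired analysis was possible because the table gives 1 value per cell line, and for the same reason no library could be left out. Depth is unknown from the table, and the wide bounds of ZEB2 and of genes near 0 limit what could be called.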

Other observations

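Of 8 markers of luminal breast epithelium, of which ESR1, PGR and XBP1 are given above, 5 were tested, and 2 were called lower in LM2-4175. Over all genes tested, 4.61% were called lower, and a count of 2 of 5 is too small to be read against that share. AGR2, a secretory pathway gene, fell from 24.9 FPKM (16.9 to 33.0) to 1.71 FPKM (0.791 to 2.63), and the trefoil factor gene TFF1 fell from 2.37 to 0.210 FPKM. GATA3, which directs luminal fate and was named after its values were seen, had 3.10 and 2.42 FPKM and was not called. XBP1 and ERBB3, also named after their values were seen, had higher values in LM2-4175 and were not called. ERBB3 had 2.05 FPKM (0 to 6.13) and 4.20 FPKM (0 to 9.81). FOXA1, below the level tested, had 0.0871 and 0.440 FPKM.

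Splicing regulators of epithelial cells, which ZEB1 is known to repress, were called in neither direction and were named after their values were seen. For ESRP1, below the level tested, MDA-MB-231 stood at 0.144 FPKM (bounds 0 and 0.408) and LM2-4175 at 0.439 FPKM (bounds 0.109 and 0.770). For ESRP2, the levels were 2.38 FPKM (bounds 0.348 and 4.41) and 0.427 FPKM (bounds 0 and 1.26). The bounds overlapped for both genes, and their values differed in opposite directions.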
